A study of Mus musculus with 32 samples.

Results

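The genes followed here belong to the muscle stem cell and myoblast programme: Myod1, Myog, Myf5 and Myf6, which encode the 4 myogenic regulatory factors, and Pax7 and Calcr, which mark the satellite cell. They were taken as the rows of the count table whose Ensembl identifiers map to these symbols, 6 of 55487 rows, and all 6 passed edgeR's filter on low counts in the fits reported here. Among the alternatives, a stricter filter removed Myf5 and Calcr throughout, and Pax7 in gastrocnemius. Fits of only the compared groups removed Calcr for double KO against any other genotype in gastrocnemius, and between muscles within control or double KO. The myogenic regulatory factors are basic helix-loop-helix transcription factors that pair with E proteins and bind E-boxes in muscle genes. MyoD and Myf5 commit cells to the muscle lineage, myogenin drives the differentiation of myoblasts, and Myf6 (MRF4) is the family member best known in mature fibres. Satellite cells lie beneath the basal lamina of the fibre, are maintained by Pax7 and, in the resting state, carry the calcitonin receptor Calcr on their surface. In innervated adult muscle Myod1 and Myog are kept low, and both are known to rise on denervation and in regeneration.

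The data were polyA RNA-seq counts of whole gastrocnemius medialis, a fast muscle, and whole soleus, a slow muscle, from the left leg of the same 16 mice. There were 4 genotypes of 4 mice: a combined knockout of Acvr1b and Tgfbr1 (double KO), a knockout of Acvr1b (Acvr1b KO), a knockout of Tgfbr1 (Tgfbr1 KO) and control. Acvr1b and Tgfbr1 encode type I receptors of the TGF-β family, through which myostatin, activins and TGF-β signal. The deletion was targeted to myofibres, was started with tamoxifen at 6 weeks of age, and muscles were taken 3 months later. The promoter of the Cre, the exons removed, and the alleles and injections that control mice carried or received are not given in the sources used here. Since whole muscle was sequenced, a gene's count pools fibres with satellite cells, in which the knockout was not intended.

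Libraries held 16535498 to 54456977 assigned counts, and the mitochondrial share was 10.4 to 26%. Acvr1b had 14.03 to 23.35 CPM in gastrocnemius of double KO and 23.7 to 27.2 CPM in Acvr1b KO, against 94.2 to 117 CPM in control, and it fell in soleus of both genotypes too. Tgfbr1 did not: it had 24.6 to 31.8 CPM in gastrocnemius labelled Tgfbr1 KO and 38.4 to 56.3 CPM in double KO, against 22.9 to 37.5 CPM in control, and its double KO log2 fold change was 0.76 (edgeR adjusted p = 0.00285). A gene-level count includes exons and cells that keep the gene, so the Tgfbr1 labels were not checked by it, and Tgfbr1 KO and double KO are used below as labelled. The labelled tissues held their fibre types: 4 slow-fibre markers (Myh7, Tnnt1, Myl2 and Tnni1) summed to 6474 to 17450 CPM in soleus and to 491.9 to 1673 CPM in gastrocnemius. Mouse 1 of the double KO stood apart in Myog and Myf6 in both muscles, and in Myod1 in soleus. Its soleus library correlated least with its group (mean Pearson r of 0.948 across genes, against 0.971 to 0.991 in the other libraries). Results are given with and without mouse 1. In gastrocnemius, control 1 had the highest mitochondrial share (26%, against 10.4 to 13.9% in the other controls) and Tgfbr1 KO 1 the fewest counts, and these 2 correlated least with their groups there (mean r of 0.9796 and 0.9798, against 0.9804 for double KO 1). Leaving out these 2 and double KO 1 took Myog in double KO against control, gastrocnemius, to a log2 fold change of 0.48 (edgeR adjusted p = 0.0924). CPM below are counts scaled to a common library total, with library sizes adjusted by the trimmed mean of M-values.

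The proximal promoters of Myog and Myf5 are shown because Myog was among the factors with the largest double KO values and Myf5 was the factor whose 95% interval lay closest around 0. Each is the 250 bases before the RefSeq start site in GRCm38.p6, read 5′ to 3′ on the strand of the gene, with E-boxes (CANNTG, which reads the same on both strands) in capitals. The Myog window lies on the plus strand at chr1:134289754-134290003 and the Myf5 window on the minus strand at chr10:107486135-107486384.
Myog: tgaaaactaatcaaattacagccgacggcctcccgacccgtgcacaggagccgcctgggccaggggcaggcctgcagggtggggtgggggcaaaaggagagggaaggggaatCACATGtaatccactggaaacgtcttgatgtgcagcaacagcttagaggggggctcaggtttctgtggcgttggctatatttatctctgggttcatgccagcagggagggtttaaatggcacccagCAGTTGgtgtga
Myf5: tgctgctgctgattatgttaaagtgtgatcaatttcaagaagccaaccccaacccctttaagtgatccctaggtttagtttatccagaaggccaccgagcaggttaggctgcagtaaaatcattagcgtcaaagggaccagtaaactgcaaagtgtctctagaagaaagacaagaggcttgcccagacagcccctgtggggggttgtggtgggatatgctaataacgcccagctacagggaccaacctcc
The Myog window held 2 E-boxes, CACATG starting at -138 and CAGTTG starting at -12 from the start site, and the Myf5 window held 0. Of 32851 RefSeq promoter windows of the same length, 66.2% held at least 1 E-box, so the motif is common, and a match or its lack says nothing about binding here. The Pax7 window also held 0, and 1 of the 2 Calcr windows held 1, CACCTG at -115. Myod1 and Myf6 are named only. Myf5 and Myf6 are neighbours on the minus strand of chromosome 10, at 107482908 to 107486134 and 107492853 to 107494737. Myod1 lies on chromosome 7 (46376474 to 46379099, plus strand), Myog on chromosome 1 (134289989 to 134292548, plus), Pax7 on chromosome 4 (139737062 to 139833528, minus) and Calcr on chromosome 6 (3685680 to 3764714, minus).

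Myf6 was by far the most abundant of the 6 in adult muscle. On a scale that corrects for gene length, it averaged 49.3 ± 12.8 TPM in soleus and 71.1 ± 21.8 TPM in gastrocnemius of control mice (SD, n = 4 each). Myog followed with 3.24 ± 0.42 TPM in soleus and 1.94 ± 1.01 TPM in gastrocnemius, and Myod1 with 0.952 ± 0.151 and 1.40 ± 0.69 TPM in the same muscles. The satellite cell genes were scarce: Myf5 averaged 0.550 TPM in soleus and 0.385 TPM in gastrocnemius of control mice, Pax7 0.434 and 0.164 TPM, and Calcr 0.137 and 0.131 TPM. Their precision is limited by counting, since a library held 10 to 50 counts of Myf5, 14 or more of Pax7 and 2 to 22 of Calcr, against 626 to 11265 of Myf6.

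**Figure D1:**
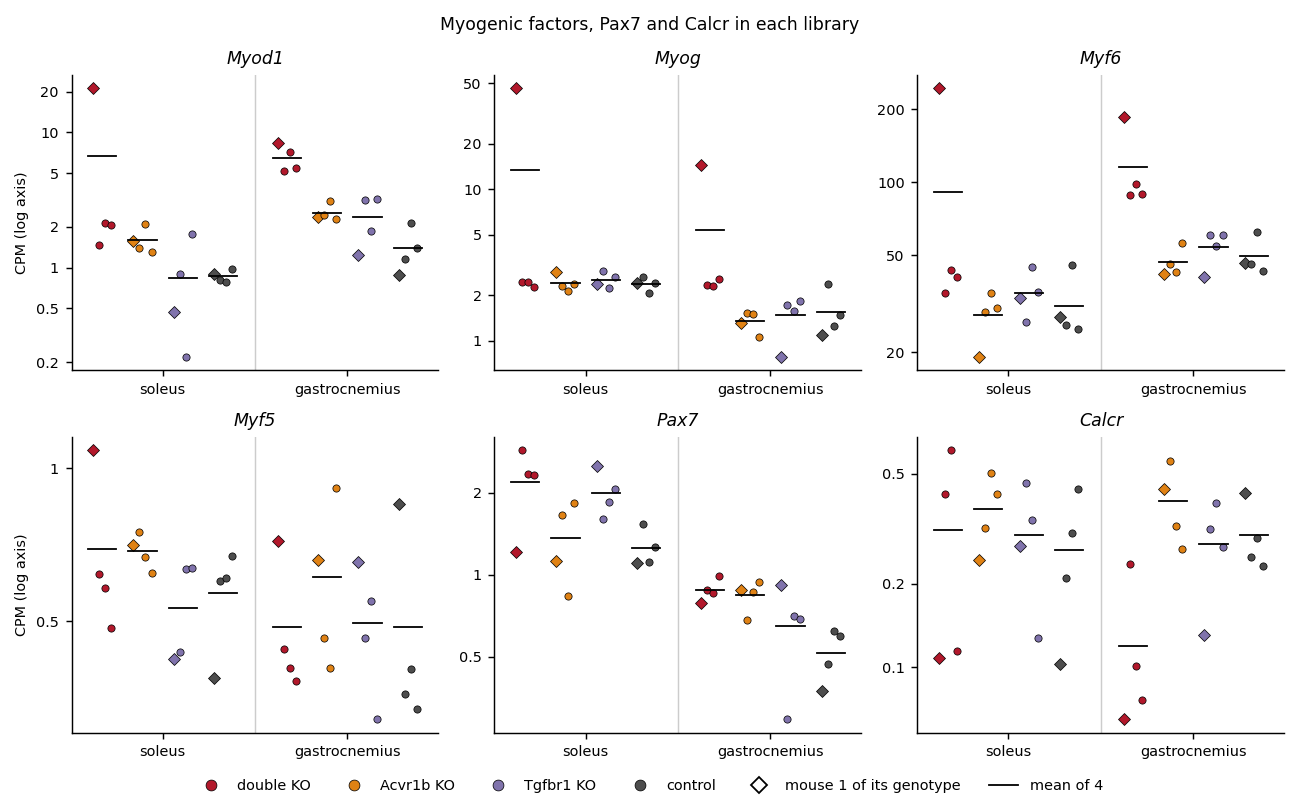
CPM (log axis) of the 6 genes in each of the 32 libraries, by muscle and genotype, with the mean of 4 as a bar and mouse 1 of each genotype as a diamond. Myod1 of all 4 double KO gastrocnemius libraries sits at 5.14 to 8.31 CPM, above control at 0.879 to 2.12 CPM, while in soleus the double KO mean of Myod1, Myog and Myf6 is set by mouse 1.

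In gastrocnemius of double KO mice 3 of the 4 myogenic regulatory factors and Pax7 were called as higher, and Calcr as lower. Only the calls of Myod1 and Myf6 held in all alternatives. Myod1 had 8.31, 5.14, 7.09 and 5.46 CPM in double KO, against 0.879, 1.16, 2.12 and 1.39 CPM in control. Every double KO library lay above every control library. The log2 fold change was 2.26 (SE 0.27, 95% interval 1.69 to 2.84), with an adjusted p of 2.28e-05 in edgeR's quasi-likelihood test. This call held in all 24 alternatives run, with log2 fold changes of 1.95 to 2.52.

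Myf6, the fibre-expressed factor, had 186, 88.8, 98.8 and 89.2 CPM in double KO, against 46.7, 46.0, 62.3 and 43.2 CPM in control. The groups did not overlap, and mouse 1 was 2.01-fold above the mean of the other 3 double KO mice. On the log2 scale the fold change was 1.24 (SE 0.21, edgeR adjusted p = 0.000626). It was 0.90 without mouse 1 (edgeR adjusted p = 0.000311), and the call held in all 24 alternatives.

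Myog, the differentiation factor, had 14.4, 2.32, 2.30 and 2.54 CPM in double KO, against 1.09, 2.38, 1.24 and 1.47 CPM in control. Double KO mouse 1 was 6.04-fold above the mean of the other 3 double KO mice, and the groups overlapped at control 2. The log2 fold change was 1.80 (SE 0.52, edgeR adjusted p = 0.0202). The call was lost in 6 of 23 alternatives: it was 0.63 without double KO mouse 1 (edgeR adjusted p = 0.0815) and was also lost without control 1, where the adjusted p was 0.0535. Myf5 had 0.719, 0.441, 0.404 and 0.381 CPM in double KO, against 0.852, 0.360, 0.402 and 0.336 CPM in control, with a log2 fold change of -0.02 and a 95% interval of -0.77 to 0.73. Mouse 1 of either group was the highest of its 4.

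Pax7, the transcription factor that maintains satellite cells, had 0.785, 0.881, 0.858 and 0.991 CPM in double KO, against 0.373, 0.470, 0.622 and 0.594 CPM in control. The groups did not overlap, and mouse 1 was the lowest of the double KO. Its log2 fold change was 0.80 (SE 0.26, edgeR adjusted p = 0.0405), and 0.84 without mouse 1 (edgeR adjusted p = 0.0468). The call was lost in 9 of 23 alternatives with log2 fold changes of 0.66 to 0.87, 7 of them the removal of 1 library (Acvr1b KO 3, double KO 2, 3 or 4, control 1, 2 or 4). In whole muscle, more satellite cells and more Pax7 RNA per cell cannot be told apart.

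Calcr, the receptor of resting satellite cells, had 0.065, 0.235, 0.101 and 0.076 CPM in double KO, against 0.426, 0.249, 0.293 and 0.232 CPM in control. These values rest on 2 to 8 counts a library in double KO and 8 to 16 in control, and double KO 2 overlapped the lowest control. Its log2 fold change was -1.30 (SE 0.41, edgeR adjusted p = 0.0343). The call was lost in 8 of 22 alternatives with log2 fold changes of -1.33 to -0.91, 5 of them the removal of 1 library (double KO 1, 3 or 4, control 1 or 3). Pax7 and Calcr, both satellite cell genes, thus had log2 fold changes of opposite sign in this comparison. Neither call held without double KO 1, control 1 and Tgfbr1 KO 1 (edgeR adjusted p = 0.0712 and 0.143).

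In all, 4 of the 6 genes were higher and 1 lower in gastrocnemius of double KO, where 20.9% of the 17536 genes tested were called, 11.4% as higher and 9.59% as lower. The 6 genes' count was 3 without double KO mouse 1. For 3 genes (Myod1, Myf6 and Pax7) all double KO libraries lay above all control libraries, as did 10.4% of genes tested.

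**Figure D2:**
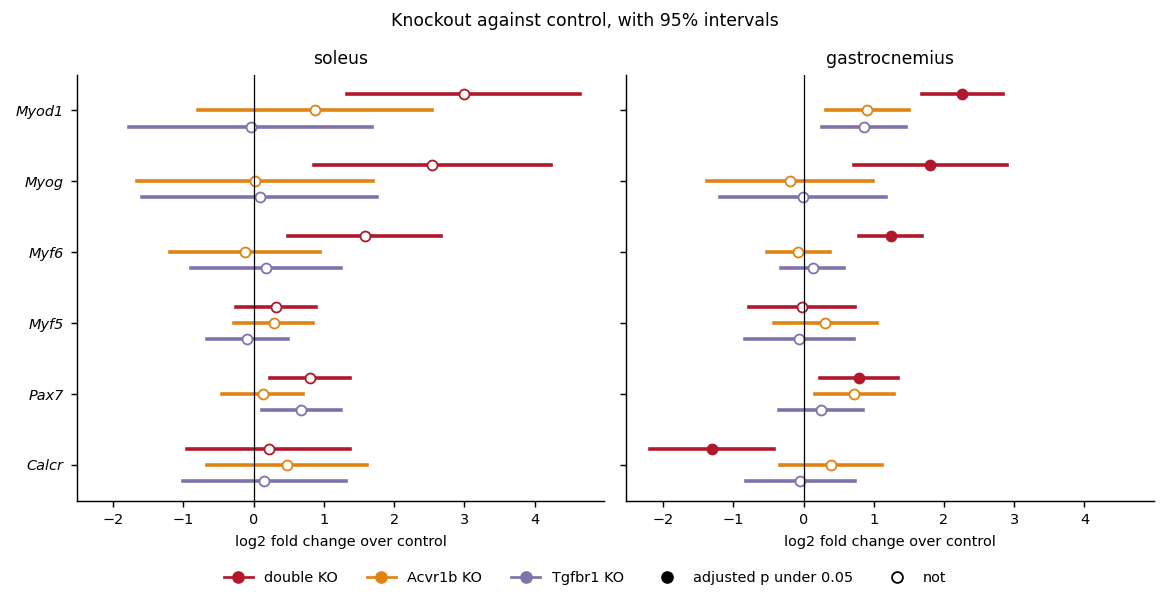
Log2 fold changes over control with 95% intervals for double KO, Acvr1b KO and Tgfbr1 KO in each muscle; filled points passed an adjusted p of 0.05 (edgeR). In gastrocnemius 5 double KO points are filled, from 2.26 for Myod1 to -1.30 for Calcr, and no single knockout point is filled in either muscle.

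In neither single knockout did any of the 6 genes pass the test in gastrocnemius, where few genes did at all: 0.0285% of genes were called in Acvr1b KO and 0.171% in Tgfbr1 KO, and 4.42% and 6% had an unadjusted p under 0.05. At that unadjusted level 2 of the 6 (Myod1 and Pax7) passed in Acvr1b KO and 1 (Myod1) in Tgfbr1 KO. By DESeq2, 0 were called in either, with no adjusted p for Myog in both and for Calcr in Acvr1b KO. Myod1 had the largest single knockout values. It had 2.35, 2.45, 3.11 and 2.30 CPM in Acvr1b KO and 1.24, 3.14, 1.88 and 3.21 CPM in muscles labelled Tgfbr1 KO, set against the control values above. Acvr1b KO did not overlap control, while Tgfbr1 KO did.

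The log2 fold change of Myod1 over control was 0.91 in Acvr1b KO (SE 0.28, unadjusted p = 0.00512 by edgeR, adjusted 0.863) and 0.86 in Tgfbr1 KO (SE 0.28, unadjusted p = 0.00773 by edgeR, adjusted 0.540). Pax7 in Acvr1b KO, at 0.681 to 0.945 CPM, did not overlap control either (log2 fold change 0.72, edgeR adjusted p = 1). Non-overlap with higher values, seen in these 2 of the 6 genes in Acvr1b KO, was found for 1.32% of genes tested there. The other single knockout values of the 6 genes lay between -0.19 and 0.39 on the log2 scale. All 3 knockouts were set against the same 4 control mice.

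Set directly against the single knockouts in gastrocnemius, the double KO had higher Myod1, Myog and Myf6. Against Acvr1b KO the log2 fold changes were 1.36 for Myod1 (SE 0.26, edgeR adjusted p = 0.00162), 2.00 for Myog (SE 0.53, 0.0153) and 1.32 for Myf6 (SE 0.21, 0.000471), and Calcr was lower by 1.70 (SE 0.40, 0.00796). Against Tgfbr1 KO they were 1.40 for Myod1 (SE 0.26, edgeR adjusted p = 0.00187), 1.81 for Myog (SE 0.53, 0.0314) and 1.11 for Myf6 (SE 0.21, 0.00262). These are 4 and 3 of the 6 genes, against 16.3% and 12.9% of all genes called. Without mouse 1, Myog still passed against Acvr1b KO at a log2 fold change of 0.82 (edgeR adjusted p = 0.0322). Against Tgfbr1 KO it was 0.63 without that mouse (edgeR adjusted p = 0.113), and the call was also lost when any 1 of the 4 Tgfbr1 KO libraries was left out. The Myog call against Acvr1b KO was lost with no filter on low counts and with the compared groups alone (edgeR adjusted p = 0.0653 and 0.0667). Calcr against Tgfbr1 KO was -1.26 (edgeR adjusted p = 0.0619), and passed when double KO 2, control 1 or Tgfbr1 KO 1 was left out.

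Pax7 did not pass between double KO and Acvr1b KO, with 0.785 to 0.991 and 0.681 to 0.945 CPM and a log2 fold change of 0.07 (95% interval -0.45 to 0.60). Whether the double KO differed from the sum of both single knockout effects in gastrocnemius was tested as an interaction. Myf6 exceeded that sum by 1.19 on the log2 scale (SE 0.30, edgeR adjusted p = 0.0498), 1 of 6 genes where 2.14% of all genes were called. This call was lost in 15 of 23 alternatives, 13 of them the removal of 1 library. Myod1 exceeded the sum by 0.50 (95% interval -0.31 to 1.30) and did not pass. Larger departures that did not pass either were 2.00 for Myog (95% interval 0.38 to 3.62, edgeR adjusted p = 0.215) and -1.65 for Calcr (95% interval -2.80 to -0.49, edgeR adjusted p = 0.142).

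In soleus none of the 6 genes passed the edgeR test in double KO against control at an adjusted p of 0.05, where 0.722% of the 18143 genes tested did; 4 of the 6 had an unadjusted p under 0.05 (Myod1, Myog, Myf6 and Pax7), as did 12.2% of genes. DESeq2 gave no adjusted p for Myod1, Myog and Myf6 there and called 0 of the other 3. Myod1 had 21.2, 1.47, 2.13 and 2.08 CPM in double KO, against 0.903, 0.811, 0.785 and 0.984 CPM in control. All 4 double KO libraries were above all 4 control libraries, as for 3.44% of genes tested, and 1 of them was 11.3-fold above the other 3. The log2 fold change was 2.99 with a wide interval (95% interval 1.33 to 4.65, edgeR adjusted p = 0.101), and 1.11 without mouse 1.

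Myog in soleus had 46.5, 2.45, 2.43 and 2.28 CPM in double KO, against 2.43, 2.64, 2.08 and 2.41 CPM in control. The other 3 double KO mice lay inside the control range, and the log2 fold change of 2.54 became -0.007 without mouse 1. Myf6 had 244, 34.9, 43.5 and 40.9 CPM in double KO, against 28.01, 25.8, 45.8 and 24.8 CPM in control, with a log2 fold change of 1.58 that became 0.35 without mouse 1. Neither value passed with or without that mouse.

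Pax7 did the opposite of Myod1, Myog and Myf6 when mouse 1 was left out. It had 1.22, 2.87, 2.35 and 2.33 CPM in double KO soleus, against 1.11, 1.53, 1.12 and 1.27 CPM in control. Mouse 1 was the lowest of the double KO and lay inside the control range. The log2 fold change was 0.80 with it (edgeR adjusted p = 0.215) and 1.00 without it (SE 0.23, edgeR adjusted p = 0.0417), the only call among the 6 genes for double KO against control in soleus in the alternatives run. Calcr had 0.108, 0.423, 0.607 and 0.114 CPM in double KO, against 0.103, 0.210, 0.304 and 0.440 CPM in control, which overlap throughout. The mean of Calcr over control also rose without mouse 1, from 1.18-fold to 1.44-fold. Myf5 had 1.09 CPM in mouse 1 and 0.484 to 0.620 CPM in the other double KO mice, against 0.387 to 0.673 CPM in control.

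In single knockout soleus 0 of the 6 genes passed, with 0.022% of genes called in Acvr1b KO and 0.0496% in Tgfbr1 KO, and DESeq2 called 0 as well, with no adjusted p for Myod1, Myog and Myf6. By unadjusted p under 0.05 in edgeR, 0 of the 6 passed in Acvr1b KO (1.95% of genes) and 1 (Pax7) in Tgfbr1 KO (2.26%). Pax7 had 2.51, 1.60, 1.85 and 2.08 CPM in soleus labelled Tgfbr1 KO, all above control as for 1.29% of genes (log2 fold change 0.68, 95% interval 0.11 to 1.24, edgeR adjusted p = 1). Myod1 in Acvr1b KO, at 1.30 to 2.09 CPM, lay above control as well, as for 0.987% of genes (log2 fold change 0.87, 95% interval -0.80 to 2.54). Myod1 in Tgfbr1 KO ranged from 0.219 to 1.76 CPM, on both sides of control. Double KO set directly against Acvr1b KO or Tgfbr1 KO in soleus had 0 of the 6 genes called. Of the 18143 genes tested there, 23 and 9 were called. For the departure from additivity in soleus, 0 of the 6 and 0 of all genes were called.

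**Figure D3:**
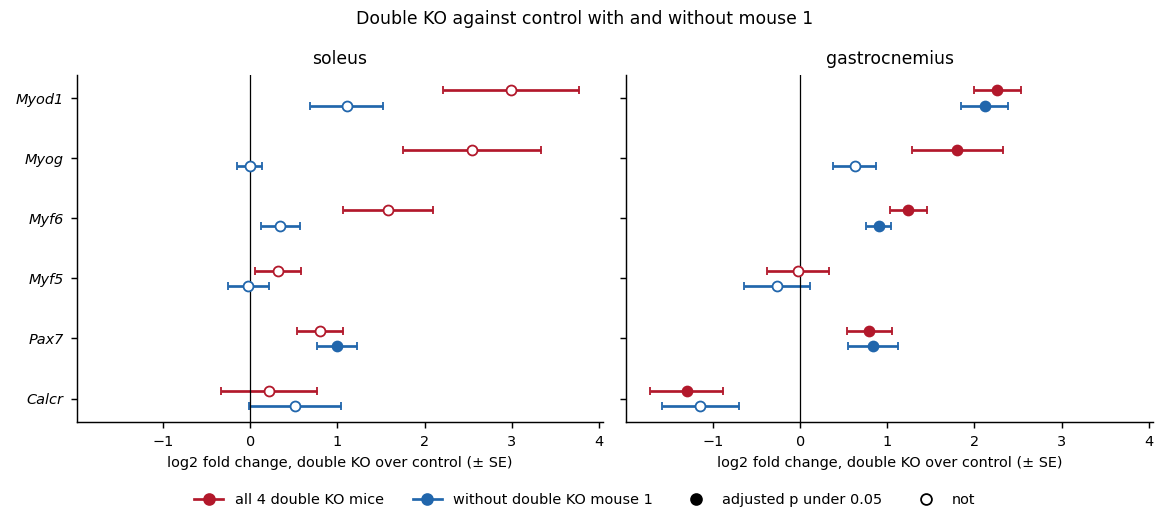
Log2 fold change of double KO over control (± SE) in each muscle, with all 4 double KO mice and without mouse 1; filled points passed an adjusted p of 0.05 (edgeR). In soleus Myog moves from 2.54 to -0.007 and Pax7 becomes filled, while in gastrocnemius Myod1, Myf6 and Pax7 stay filled.

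Double KO mouse 1 thus held the highest Myod1, Myog and Myf6 of all 16 libraries in each muscle. Its ratio to the other double KO mice was larger in soleus than in gastrocnemius for all 3 genes, 11.3 and 1.41 for Myod1, 19.5 and 6.04 for Myog and 6.14 and 2.01 for Myf6. Its Calcr was the lowest of 16 libraries in gastrocnemius (0.065 CPM) and the second lowest in soleus (0.108 CPM). Pax7 did not follow, at 0.863 of the other double KO mice in gastrocnemius and 0.483 of them in soleus. The 2 libraries come from the same mouse, and with 1 such mouse there is no test of it against the others.

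Between muscles, Pax7 was higher in soleus. In control mice it had 1.11, 1.53, 1.12 and 1.27 CPM in soleus, against 0.373, 0.470, 0.622 and 0.594 CPM in gastrocnemius, a log2 difference of 1.29 (SE 0.29, edgeR adjusted p = 0.000584). In double KO mice the difference was 1.31 (SE 0.26, edgeR adjusted p = 0.000219). Both calls held in all 41 alternatives. The soleus library was the higher one in 15 of 16 mice, the exception being an Acvr1b KO mouse. Pax7 was the only 1 of the 6 genes called in control mice, where 40.4% of 18726 genes were.

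Myog was higher in soleus in 15 of 16 mice, and Myf6 was lower in soleus in 15 of 16. In control mice the log2 difference was 0.62 for Myog (edgeR adjusted p = 0.520) and -0.67 for Myf6 (edgeR adjusted p = 0.186). With the mouse as a block (a paired fit of both muscles of each mouse) both passed, at 0.67 (edgeR adjusted p = 0.0481) and -0.70 (edgeR adjusted p = 0.0156). They also passed without both libraries of double KO mouse 1, at 0.59 and -0.70 (edgeR adjusted p = 0.0142 and 0.00279), and Myf6 passed without that mouse's soleus library and in a fit of the compared groups alone. Myod1 was lower in soleus in 14 of 16 mice, and did not pass in control mice (-0.65, 95% interval -1.96 to 0.66).

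In double KO mice, where 39.7% of genes differed between muscles, Calcr was higher in soleus in 4 of 4 mice, by 1.35 on the log2 scale (SE 0.54, edgeR adjusted p = 0.0489), a call lost in 25 of 39 alternatives, 23 of them the removal of 1 of the 32 libraries. The values of Myod1, Myog and Myf6 depended on mouse 1. For Myod1 the log2 difference was 0.07 with all mice and -1.82 without the soleus library of mouse 1 (edgeR adjusted p = 0.000143). It was -1.68 without both libraries of that mouse (edgeR adjusted p = 0.000585). With the mouse as a block it was -0.84 and did not pass (edgeR adjusted p = 0.111). For Myf6 the log2 difference was -0.34 with all mice and -1.58 without that soleus library (edgeR adjusted p = 0.51 and 8.49e-06). It also passed without both libraries (-1.25, edgeR adjusted p = 3.07e-05) and with the mouse as a block (-0.82, edgeR adjusted p = 0.00703). For Myog it was 1.34 with all mice, -1.20 without the soleus library of mouse 1 (edgeR adjusted p = 0.0249), 2.50 without its gastrocnemius library (edgeR adjusted p = 0.0049) and -0.042 without both. It passed as higher in soleus without soleus double KO 2, 3 or 4 as well.

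Whether the double KO effect differed between muscles was tested directly. None of the 6 genes passed in edgeR (0.732% of genes did), and by unadjusted p under 0.05 1 did, Calcr, against 8.82% of genes; DESeq2 also called 0, with no adjusted p for Myog and Myf6. For Calcr the effect was higher in soleus by 1.52 on the log2 scale (95% interval 0.03 to 3.02, edgeR adjusted p = 0.55). For Myod1, Myog and Myf6 the differences were 0.72, 0.72 and 0.33 with all mice and -1.001, -0.63 and -0.55 without both libraries of mouse 1, and did not pass either way.

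**Figure D4:**
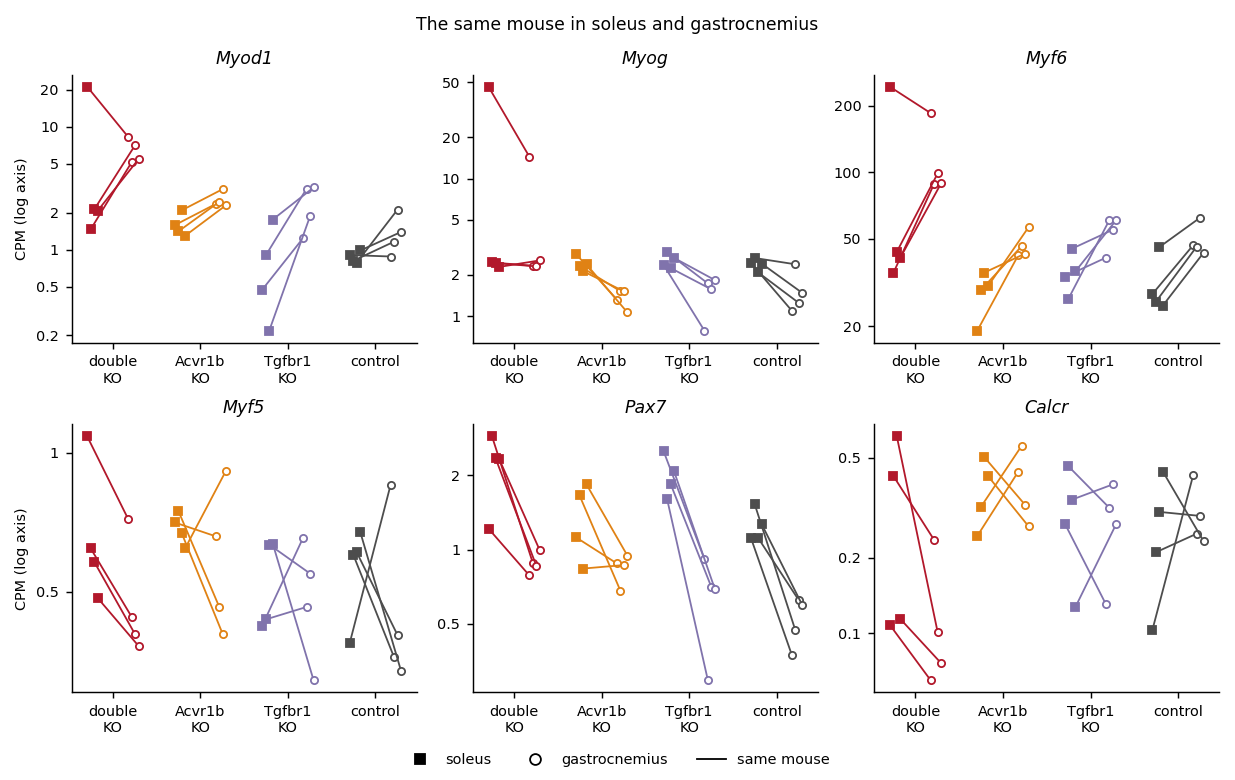
CPM (log axis) of the 6 genes in soleus (squares) and gastrocnemius (circles) of the same mouse, joined by a line, by genotype. Pax7 lines fall toward gastrocnemius in 15 of 16 mice and Myf6 lines rise toward gastrocnemius in 15 of 16, the exception for Myf6 being double KO mouse 1.

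Other genes of the pathway were followed in 5 lists. The counts of called genes in gastrocnemius of double KO are to be read against 11.4% of all genes called higher and 9.59% called lower. Of 20 partners and inhibitors of the myogenic factors, 7 rose and 0 fell in gastrocnemius of double KO (6 and 0 without mouse 1), with a median log2 fold change of 0.21 against 0 over all genes tested. Mdfi is an inhibitor that binds myogenic factors and holds them in the cytoplasm. It rose by 3.74 on the log2 scale (SE 0.49, edgeR adjusted p = 4.92e-05), to 0.654 to 1.19 CPM in double KO. In control it had 0.0258 to 0.0830 CPM. Those control values lie below Calcr in control gastrocnemius (0.232 to 0.426 CPM), which rests on 8 to 16 counts a library. The size of the Mdfi change is thus limited by counting. Id3 and Id2, which lack a basic region and tie up E proteins, rose by 1.44 and 1.42 (edgeR adjusted p = 0.000813 and 0.0131). Without mouse 1 these 3 values were 3.85, 1.32 and 0.83, and all 3 still passed.

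Of 14 cofactors of the myogenic factors 3 rose and 0 fell in gastrocnemius of double KO, also without mouse 1, with a median of 0.06 over the list. Among them were the homeodomain factors Six4, by 0.63 on the log2 scale, and Meis1, by 0.47 (edgeR adjusted p = 0.00579 and 0.00658).

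Of 17 tested genes of muscle differentiation and fusion, 7 rose and 4 fell in gastrocnemius (median 0.14), against 6 and 5 without mouse 1 (median -0.03). Actc1, the cardiac actin of immature muscle, rose by 3.13 (SE 0.36, edgeR adjusted p = 1.58e-05), Ankrd1, a titin-associated stress-response gene, by 2.11 (edgeR adjusted p = 0.0106) and Chrna1, an acetylcholine receptor subunit, by 1.44 (edgeR adjusted p = 0.00436). The values without mouse 1 were 3.34, 0.93 and 0.73. The 4 that fell, named after their values were seen, were Cdkn1c, a cell cycle inhibitor, by 0.80, Cdon, a cell surface receptor of myoblasts, by 0.72, Myh8, the neonatal myosin, by 0.62, and Myh3, the embryonic myosin, by 0.42 (edgeR adjusted p = 0.00104, 1.48e-05, 0.0153 and 0.000621). Of 19 tested satellite cell and quiescence genes other than the members, 2 rose and 0 fell (median 0.06), a share close to that of all genes: Ncam1, an adhesion molecule, by 1.02 (edgeR adjusted p = 0.000989), and Spry1, a feedback inhibitor of growth factor signalling, by 0.85 (edgeR adjusted p = 0.00132). Without mouse 1 the counts in this list were 3 and 1, with Cd34 higher by 0.39 and Sdc4, a syndecan, lower by 0.90 (edgeR adjusted p = 0.00566 and 0.000953).

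Of 9 tested cell proliferation genes 0 passed in edgeR in gastrocnemius, with a median of 0.27 that was -0.05 without mouse 1. The most abundant, Pcna, a replication clamp, had 11.4 to 11.97 CPM in double KO, against 11.7 to 12.4 CPM in control. In soleus, where 0.722% of genes were called, 1 of 14 cofactors passed as higher with all mice and without mouse 1, and 0 genes of the other 4 lists passed with all mice. Without mouse 1, when 150 of 18371 genes were called higher and 158 lower, the satellite cell list had 1 higher and 1 lower, and the differentiation list 1 higher and 2 lower. Sdc4 was lower by 1.32 (edgeR adjusted p = 0.00135), against -0.70 with all mice (edgeR adjusted p = 0.369), and Hey1, a Notch target, was higher by 0.80 (edgeR adjusted p = 0.00652). Actc1 was higher by 1.67, Cdkn1a, a cell cycle inhibitor, lower by 1.82 and Chrna1 lower by 0.48 (edgeR adjusted p = 0.00753, 0.0135 and 0.0477). Chrna1 was at 0.40 with all mice (edgeR adjusted p = 0.721), the opposite sign. These genes without mouse 1 were named after their values were seen.

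Markers of other cells moved in the same gastrocnemius comparison. Of 6 macrophage markers 4 rose (3 without mouse 1), and their summed level was 48.6 to 81.7 CPM in double KO, against 36.1 to 42.2 CPM in control. Mouse 1 had the highest of these sums in double KO of both muscles, 81.7 CPM in gastrocnemius and 98.6 CPM in soleus. All 4 slow-fibre markers fell, to a sum of 491.9 to 836 CPM in double KO, against 1038 to 1673 CPM in control, and 2 of 4 endothelial, 2 of 4 adipocyte, 3 of 3 erythroid, 1 of 4 pericyte and smooth muscle and 2 of 5 myofibre markers fell (3 of 5 without mouse 1 for the last). Of 4 fibro-adipogenic and fibroblast markers 2 rose, and none of the neutrophil, tendon and Schwann markers passed. The 5 satellite cell markers (3 are members) summed to 14.7 to 19.1 CPM in double KO and 14 to 18.9 CPM in control. None was at 0 in a whole group. Most of that sum came from the other markers, Chrdl2 and Cdh15. In control gastrocnemius Myf5, Pax7 and Calcr averaged 0.4875, 0.515 and 0.3 CPM, so the sum says little about these 3. In soleus 0 genes of these marker lists passed in edgeR with all mice. None of 4 T and B cell markers passed the filter on low counts. The part of these shifts in the values of the 6 genes was not tested.

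The genes whose pattern was most like each member were named by Spearman's rho over the 32 libraries, with log2 CPM centred on the mean of each muscle. The 32 points share 16 mice and, for double KO mouse 1, a pair of extreme libraries. For Myod1 these were Ralgds (rho 0.83, Pearson r 0.88), Id3 (0.82, r 0.87) and Cd300a (0.81, r 0.68), and for Myf6 Nck2 (0.86, r 0.82), Nans (0.83, r 0.82) and Aldh18a1 (0.83, r 0.64). Myog was nearest to Anapc7 (0.77), Cbr1 (0.76) and Fam83h (0.76), Pax7 to Fzd10 (0.77), Bahcc1 (0.71) and Slc25a35 (0.71), Calcr to Emc7 (0.70), Six2 (0.69) and Mfsd4b1 (0.68), and Myf5 to Tfap4 (0.59), Rbm17 (0.54) and Hsf2bp (0.54). Each rho is among the highest of many, centring left the differences between genotypes in, and no test was run on these values.

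Among the members, Myf6 and Myod1 had a rho of 0.56 and a Pearson r of 0.74, which were 0.47 and 0.40 over the 30 libraries without double KO mouse 1. Myog and Myf6 had a rho of 0.28 beside an r of 0.86, which was 0.36 over the same 30 libraries. Pax7 had a rho of -0.04 with Myog and -0.03 with Myf5, values limited by the low counts of Pax7 and Myf5. Without centring on the mean of each muscle they were 0.53 and 0.26. Over those 30 libraries the 3 nearest genes were the same for Pax7 in another order, 2 of 3 were shared for Myf6 and Calcr, 1 of 3 for Myod1 and 0 for Myog and Myf5.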

How the data were processed

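The deposited table held estimated counts per Ensembl gene for 32 libraries (4 in each of 8 groups), which featureCounts 2.0.1 had assigned on the reverse strand with multimapping reads shared as fractions, per the file headers. Per the submitters' processing notes, cutadapt, HISAT2, FastQC 0.11.9 and DESeq2 were also used, with GRCm38.p6. Counts were rounded to whole numbers, and symbols came from GENCODE (55141 of 55487 identifiers matched). Replicates are separate mice, per the labels. Genes were filtered with filterByExpr, scaled by TMM and tested with edgeR 4.0.16 (R 4.3.3, quasi-likelihood test, robust) in 1 fit per muscle over 4 genotypes, or 1 fit over all libraries for muscle comparisons, with Benjamini-Hochberg adjustment over all genes tested and a threshold of 0.05. DESeq2 1.42.0, RLE scaling, other filters, a replicate block, the compared groups alone and leaving out each library were alternatives. Members, lists and tests were chosen with earlier results of these data known. The text names all 6 members, up to 3 called genes per list (those with the largest change, or the most abundant where none passed) and the 3 genes most like each member. Code was tested on simulated data. Both muscles of a mouse pair by animal (same-mouse correlations of deviations 0.034 to 0.579, 11 of 16 over 0.1). Equal numbers in different genotypes are different mice. Intervals cover 95%. The values of 1 gene of the cofactor list are not reported here.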

Additional observations from a re-analysis of the deposited data

Results flagged for a closer look

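In groups of 4 libraries, 7 of 48 group and gene combinations had 1 library far from the other 3 by Dixon's criterion, which chance gives in about 1 in 20 groups. Of these, 5 were double KO mouse 1. In soleus it had 21.24 CPM of Myod1 against 1.47 to 2.13 in the other 3, 46.52 CPM of Myog against 2.28 to 2.45, and 244.4 CPM of Myf6 against 34.89 to 43.53. In gastrocnemius it had 14.42 CPM of Myog against 2.30 to 2.54, and 185.5 CPM of Myf6 against 88.76 to 98.77. The other 2 were control libraries. Control 1 had 0.852 CPM of Myf5 in gastrocnemius against 0.336 to 0.402, and control 3 had 45.76 CPM of Myf6 in soleus against 24.84 to 28 CPM.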

How the results depend on the processing

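Of 2382 values of the 6 genes under the alternatives, 2181 kept direction and side of the threshold. With the direction kept, 74 lost a call and 21 gained one, and 106 values changed sign. No value called with all libraries changed sign, and 4 of the sign changes passed in the alternative. Counting limits Calcr, Myf5 and Pax7, and the libraries left out as standing apart (double KO 1 of both muscles, gastrocnemius control 1 and gastrocnemius Tgfbr1 KO 1) were chosen after seeing the data, as was the removal of double KO mouse 1 from both muscles.

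Of the 6 genes, 5 were called for double KO against control in gastrocnemius, against 3 with DESeq2 (which gave no adjusted p for Myog), 2 with no filter, 3 with a stricter filter (which removes Myf5, Pax7 and Calcr), 3 with the compared groups alone (which removes Calcr) and 2 without the libraries that stand apart. For the departure from additivity the count was 1, against 0 with no filter and 0 with the replicate block. For double KO against Acvr1b KO it was 4, against 2 with the compared groups alone (which removes Calcr). For double KO against control in soleus it was 0, against 1 without the libraries that stand apart. For soleus against gastrocnemius it was 1 in control, against 2 with the compared groups alone and 3 without the libraries that stand apart, with the animal block or without mouse 1. In double KO it was 2, against 1 with RLE scaling, no filter, a stricter filter or the compared groups alone. The last 2 of these settings remove Calcr. The count was 3 with the animal block and 4 without the libraries that stand apart or without mouse 1.

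Signs changed with the replicate block (numbers that mark different mice) for Myf5 in gastrocnemius (double KO against control 0.029, against Tgfbr1 KO -0.029), Myog and Myf5 in Tgfbr1 KO gastrocnemius (0.051 and 0.059), Myog in Acvr1b KO soleus (-0.026) and Calcr in double KO against Tgfbr1 KO soleus (-0.038). Without the libraries that stand apart, gastrocnemius values were 0.17 for Myf5 in double KO, 0.26 for Myf5, -0.046 for Pax7 and 0.32 for Calcr in Tgfbr1 KO, -0.083 for Myf5 in double KO against Tgfbr1 KO, and 0.15 for Pax7 in the departure from additivity. Soleus values were -0.007 for Myog and -0.022 for Myf5 in double KO, -0.022 for Myog, -0.30 for Myf5 and 0.050 for Calcr against Acvr1b KO, -0.089 for Myog against Tgfbr1 KO, and -0.10 for Myog, -0.20 for Myf5 and 0.20 for Pax7 in the departure from additivity. Between muscles, Calcr in control was 0.055, Myod1 and Myog in double KO -1.64 and -0.002, and the differences of the double KO effect -0.83 for Myod1, -0.48 for Myog, -0.18 for Myf5 and -0.52 for Myf6. With the animal block, Myod1 between muscles of double KO was -0.84, and the differences of effect were -0.22 for Myod1, -0.14 for Myog, -0.12 for Myf6 and -0.016 for Pax7. Without double KO mouse 1 in both muscles, Myod1 and Myog between muscles of double KO were -1.68 and -0.042, and the differences of effect -1.001 for Myod1, -0.63 for Myog and -0.55 for Myf6. The cause was not tested.

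Leaving out 1 library at a time, double KO against control in gastrocnemius had Myf5 at -0.27 to 0.41 and 2 to 5 genes called. Acvr1b KO had Myog at -0.33 to 0.092 and Myf6 at -0.18 to 0.054, and Tgfbr1 KO had Myog at -0.14 to 0.28, Myf5 at -0.22 to 0.38 and Calcr at -0.20 to 0.19. Double KO had Pax7 at -0.014 to 0.13 against Acvr1b KO and Myf5 at -0.20 to 0.15 against Tgfbr1 KO, and 0 to 1 genes called for additivity. In soleus, double KO against control had Myog at -0.007 to 2.89, Myf5 at -0.022 to 0.45, Calcr at -0.33 to 0.57 and 0 to 1 genes called, and Pcna was -0.045 without double KO 1. Acvr1b KO had Myog at -0.075 to 0.086, Myf6 at -0.24 to 0.12 and Pax7 at -0.047 to 0.30, and Tgfbr1 KO had Myod1 at -0.73 to 0.27, Myf5 at -0.24 to 0.004 and Calcr at -0.12 to 0.51. Against Acvr1b KO double KO had Myog at -0.022 to 2.87, Myf5 at -0.30 to 0.17 and Calcr at -0.80 to 0.050, and against Tgfbr1 KO Myog at -0.089 to 2.81, Pax7 at -0.025 to 0.32 and Calcr at -0.48 to 0.37. The departure from additivity had Myog at -0.10 to 2.78, Myf5 at -0.20 to 0.27 and Pax7 at -0.18 to 0.20. Between muscles, control had Calcr at -0.54 to 0.093 and 1 to 2 genes called, and double KO Myod1 at -1.82 to 0.40, Myog at -1.20 to 2.50 and 1 to 5 genes called. The difference of the double KO effect had Myod1 at -1.14 to 1.05, Myog at -1.79 to 1.88, Myf5 at -0.11 to 0.57, Myf6 at -0.88 to 0.65 and Pax7 at -0.14 to 0.21.

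Counts of all genes called moved by over 1.5 times under these settings. In gastrocnemius, double KO against control had 3673 (2330 with the compared groups alone), Acvr1b KO 5 (26 with DESeq2, 2 with the replicate block, 3 with the compared groups alone, 8 without the libraries that stand apart), Tgfbr1 KO 30 (57 with DESeq2, 1 with the stricter filter, 100 without the libraries that stand apart), double KO against Acvr1b KO 2852 (4322 without the libraries that stand apart) and additivity 376 (734 with DESeq2, 792 without the libraries that stand apart). In soleus, double KO had 131 (410 with DESeq2, 35 with the compared groups alone, 308 without the libraries that stand apart), Acvr1b KO 4 (9 with DESeq2, 7 without the libraries that stand apart) and Tgfbr1 KO 9 (19 with DESeq2, 17 with no filter, 0 with the stricter filter, 18 without the libraries that stand apart). Double KO had 23 against Acvr1b KO (152 with DESeq2, 3 with the stricter filter, 15 with the replicate block, 0 with the compared groups alone) and 9 against Tgfbr1 KO (84 with DESeq2, 2 with the compared groups alone). Between muscles of double KO there were 7434 (4923 with the compared groups alone), and the difference of effect had 137 (229 with DESeq2, 258 with the animal block, 31 with the compared groups alone, 283 without the libraries that stand apart, 302 without mouse 1). Leaving out 1 library moved the count past 1.5 times in these cases. Acvr1b KO in gastrocnemius had 3 to 9 (without any Acvr1b KO or Tgfbr1 KO library, double KO 1 or control 2, 3 or 4). Additivity in gastrocnemius had 232 to 249 (without Acvr1b KO 1, 2 or 3, double KO 3, control 3 or Tgfbr1 KO 2). In soleus, double KO had 64 without control 4, 69 without control 2 and 308 without double KO 1, Acvr1b KO 7 without double KO 1, and Tgfbr1 KO 4 to 18 (without Acvr1b KO 3, any double KO, control 1, 3 or 4, or Tgfbr1 KO 2, 3 or 4). Double KO in soleus had 8 to 14 against Acvr1b KO (without Acvr1b KO 1 or 2, double KO 2, 3 or 4, or control 4) and 4 to 17 against Tgfbr1 KO (without Acvr1b KO 1, 2 or 3, double KO 3, control 3 or 4, or Tgfbr1 KO 1, 3 or 4). The difference of effect had 72 without gastrocnemius control 1, 81 and 85 without gastrocnemius double KO 4 and 3, 91 without soleus control 3 and 337 without soleus double KO 1.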
